A study of Mus musculus with 8 samples.

Results

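The genes described here handle latent TGF-β outside the cell: *Ltbp1*, *Ltbp2*, *Ltbp3* and *Ltbp4*, which encode the latent TGF-β binding proteins, *Fbn1* (fibrillin-1), *Thbs1* (thrombospondin-1) and *Furin*. They were taken by symbol from a table of raw RNA-seq counts, where they are 7 of 37310 genes, and 5 of them were among the 13028 genes with enough reads to be tested. *Ltbp2* and *Fbn1* were too low to be tested and are given by their counts. The cells were NMuMG, a mouse mammary gland epithelial line, grown in medium with serum and insulin. Control cells and cells labelled KO, in which CRISPR-Cas9 had been used to delete the promoter and first exon of the long noncoding RNA *Lnc-Nr6a1*, were left untreated or were treated with TGF-β1 at 10 ng/ml for 2 h, and each of the 4 conditions was sequenced in 2 biological replicates. The study derived its knockout cells from single sorted cells, and how many clones stand behind these 4 libraries is not given in the sources used here, so effects of the deletion and of a clone cannot be told apart. The genotype of the control cells beyond the word control is likewise not given.

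TGF-β is made as a precursor that the convertase furin cuts in the secretory pathway, after which the propeptide stays wrapped around the growth factor and keeps it from its receptors. The propeptide is bound by a latent TGF-β binding protein, which carries the complex into the matrix, onto fibrillin microfibrils and fibronectin. Integrins that pull on the propeptide, thrombospondin-1 and several proteases can then free the active ligand. In mammary epithelium, TGF-β restrains growth and can drive the epithelial-mesenchymal transition, for which NMuMG is a standard model. Counts describe the transcripts of this storage and release machinery, not how much latent ligand was bound or freed.

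Total counts lay between 4297832 and 7871090 in the 4 untreated libraries and between 9895118 and 13574397 in the 4 treated ones, so depth moved with the treatment, and its part in the results was not tested. Levels are given as CPM, a library's counts of a gene relative to its total after scaling by TMM factors, and 3 counts, the limit that a count of 0 allows, correspond to 0.238 to 0.661 CPM. A gene was called at a Benjamini-Hochberg adjusted p under 0.05 in edgeR's quasi-likelihood test and a log2 fold change over 0.5 in size. The targeted transcript (*Gm13507* in the annotation) had 3 and 14 counts in untreated control libraries, 25 and 35 after TGF-β, 11 and 7 in the untreated libraries labelled KO and 0 and 0 in the treated ones. In these few counts it goes against the label of the untreated knockout libraries, and the name "libraries labelled knockout" is used throughout. *Gm13507* overlaps *Nr6a1* on the opposite strand, and whether reads were counted by strand is not given, so its counts are uncertain. By RT-qPCR the paper reported that expression of the isoforms was fully lost in homozygous clones. The convertase gene *Pcsk6* was lower in all 4 libraries labelled knockout than in the control libraries, with log2 differences of -2.51 without TGF-β and -2.15 with it. It is named because it was called between these same libraries, so it is no independent check of the label. *Pcsk6* lies on chromosome 7, where the median log2 difference of 943 tested genes between the genotypes was -0.25 without TGF-β. Of 8 immediate TGF-β targets 6 were called higher after TGF-β in each genotype, where 4.69% of all tested genes in control cells and 4.25% under the knockout label were, among them *Smad7*, *Skil*, *Snai1*, *Pmepa1* and *Junb*. *Tgif1* was called in neither (edgeR adjusted p = 0.0852 and 0.142), and *Id1* was called lower in control cells (-0.65, edgeR adjusted p = 0.0480) and was at 0.31 under the knockout label (edgeR adjusted p = 0.337). Epithelial markers summed to between 4900 and 10034 CPM, carried by *Krt8*, *Krt18*, *Cdh1* and *Ocln*, but 4 of the 8 were absent or nearly so: *Cldn3* and *Cldn7* were at 0 in every library, *Epcam* reached 0.187 CPM in a single library, and *Krt7* had group means of 0.56 to 1.35 CPM. Fibroblast markers summed to between 0.797 and 4.85 CPM, with *Lum* at 0. In bulk libraries, fewer cells of a type and less RNA per cell cannot be told apart.

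In these cells *Ltbp1*, *Ltbp3*, *Thbs1* and *Furin* were well expressed, *Ltbp4* was low, and *Ltbp2* and *Fbn1* were barely detected. TGF-β raised *Thbs1* in both genotypes, 2.80-fold in control and 4.94-fold in knockout-labelled libraries, and in the latter it also raised *Furin* 2.47-fold and *Ltbp1* 1.63-fold. After TGF-β, the libraries labelled knockout held 2.41-fold more *Furin*, 2.01-fold more *Ltbp3* and 1.75-fold more *Ltbp1* than control libraries. In the main edgeR fit of all 8 libraries no member was called between the genotypes without TGF-β, and none in the test of the difference between the 2 TGF-β responses. Some alternative settings did call members in these tests, as given below. For the difference of responses 2 of 5 members had an unadjusted edgeR p under 0.05, against 8.70% of all tested genes. Without TGF-β 2 of 5 did, *Ltbp1* and *Ltbp3*, which ranked only 791 and 1569 by edgeR p among 13028 genes.

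**Figure D1:**
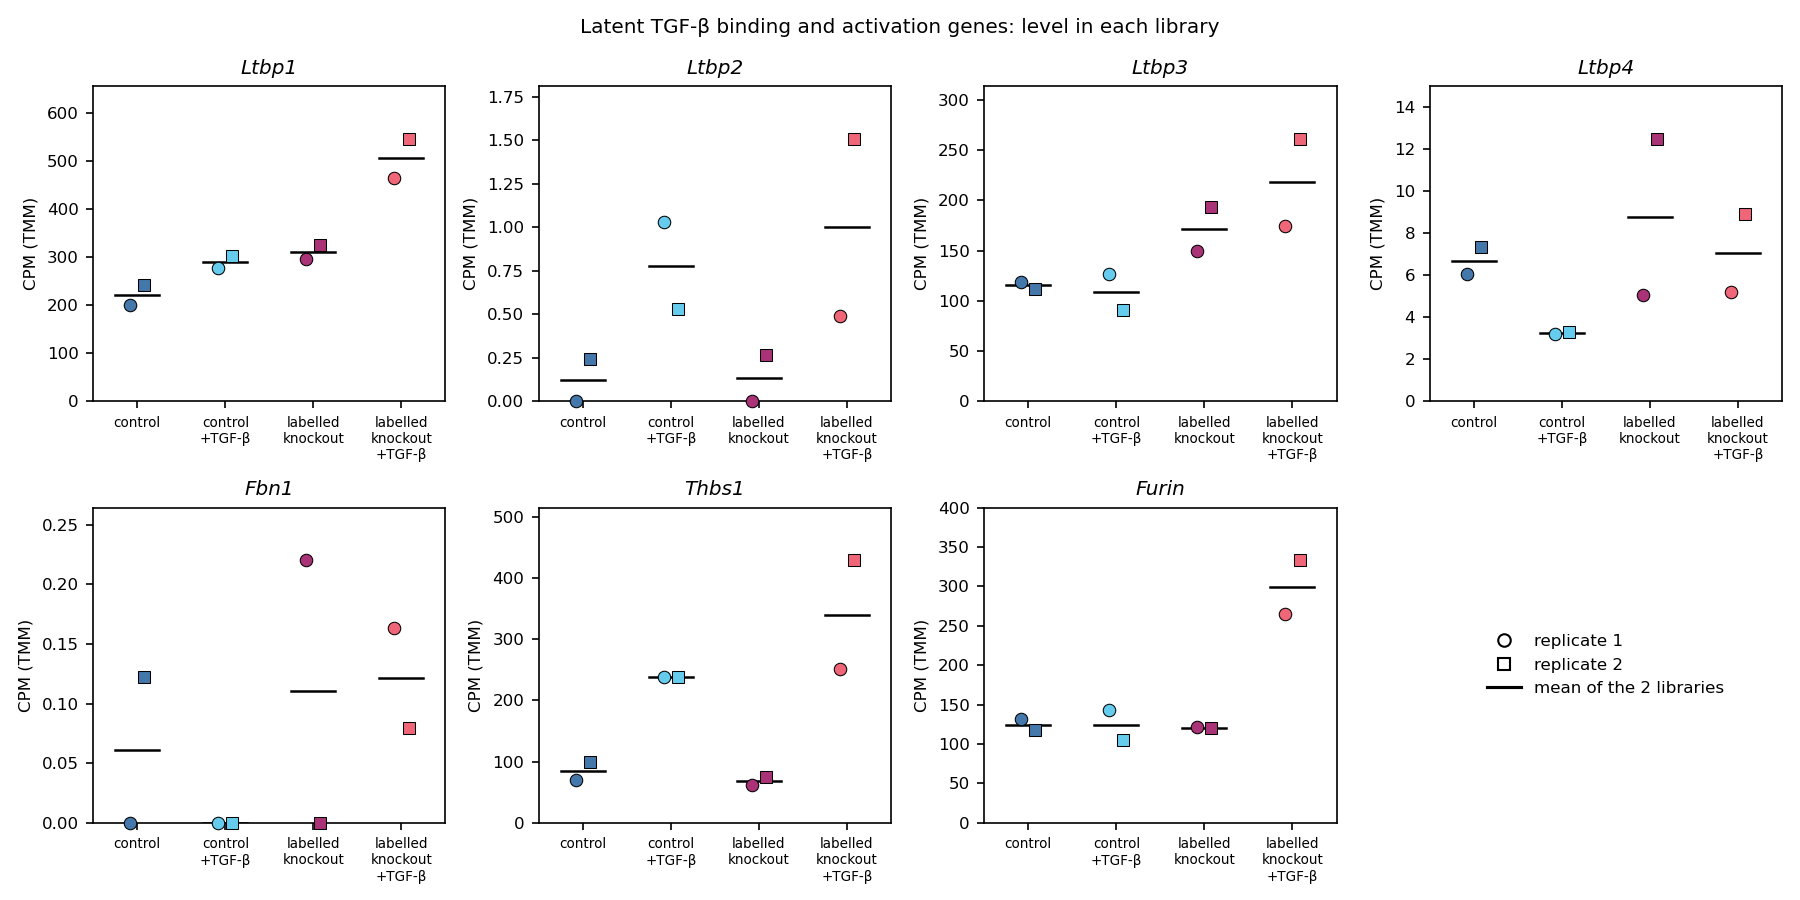
Level of each of the 7 genes in each library (CPM with TMM factors, linear axes from 0 that differ between panels), with control and libraries labelled knockout, untreated and after 2 h of TGF-β, on the horizontal axis; points are libraries and bars are means of 2. *Furin* stands apart only in the treated libraries labelled knockout, at 265 and 334 CPM, whereas *Thbs1* is higher in all 4 treated libraries.

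*Furin*, the convertase that separates the TGF-β propeptide from the growth factor, lies on chr7:87533471-87550322 on the minus strand of NCBIM37 (mm9), the build whose gene models match the counts (ENSMUSG00000030530.9). RefSeq gives it 2 start sites among the promoter windows used here (GRCm38.p6, 250 bases before to 50 bases after a start). Both windows, on the minus strand, are shown because *Furin* had the lowest adjusted p of the members between the genotypes after TGF-β, with capitals for CAGAC or its reverse complement GTCTG, the short motif that SMAD proteins bind.
Furin start at chr7:80402763-80403062: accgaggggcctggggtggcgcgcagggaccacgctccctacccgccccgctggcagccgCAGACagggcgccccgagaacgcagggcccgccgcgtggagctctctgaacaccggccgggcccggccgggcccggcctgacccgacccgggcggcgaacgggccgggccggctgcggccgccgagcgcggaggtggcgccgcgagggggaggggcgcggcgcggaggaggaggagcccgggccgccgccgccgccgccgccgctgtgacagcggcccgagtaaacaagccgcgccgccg
Furin start at chr7:80405387-80405686: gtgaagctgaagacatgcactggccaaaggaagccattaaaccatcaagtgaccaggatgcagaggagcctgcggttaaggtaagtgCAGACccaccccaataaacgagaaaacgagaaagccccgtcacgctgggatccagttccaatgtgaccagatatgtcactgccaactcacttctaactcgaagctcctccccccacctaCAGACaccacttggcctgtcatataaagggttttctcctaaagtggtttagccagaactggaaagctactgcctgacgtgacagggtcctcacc
The motif stands at bases 61 to 65 of the former window and at bases 88 to 92 and 207 to 211 of the latter, counted from 1 at the 5′ end. It is a common sequence, present on either strand in 49.6% of 32851 such windows of the genome, and a match is a description of the letters, not of binding.

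The level of *Furin* was 132 and 118 CPM in the untreated control libraries and 143 and 105 CPM in those treated with TGF-β. Libraries labelled knockout both had 121 CPM without TGF-β and had 265 and 334 CPM with it. The 6 other libraries thus overlapped in a narrow band, and both treated libraries labelled knockout lay above all of them. In control cells the log2 fold change after TGF-β was -0.01 (SE 0.18, 95% interval -0.41 to 0.40, adjusted p = 0.990 by edgeR). Under the knockout label *Furin* rose by a log2 fold change of 1.31 (SE 0.18, 0.89 to 1.72, adjusted p = 0.00410 by edgeR). That call was lost when either untreated library labelled knockout was left out, with edgeR adjusted p values of 0.0586 without replicate 1 and 0.0630 without replicate 2. Between the genotypes the log2 difference was -0.04 (SE 0.18, edgeR adjusted p = 0.941) without TGF-β and 1.27 (SE 0.18, 0.86 to 1.68, edgeR adjusted p = 0.00378) after it. The latter call was kept whichever library was left out, at log2 differences of 1.07 to 1.52. Of all genes tested, 15.0% were called in the comparison after TGF-β, 8.47% as higher and 6.57% as lower in the libraries labelled knockout, and 3 of the 5 tested members were called, all higher.

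The 2 TGF-β responses of *Furin* differed by 1.31 on the log2 scale (SE 0.26, 0.73 to 1.89). Its unadjusted p of 0.000554 ranked 15 among 13028 genes in edgeR, and the adjusted p was 0.392. In that test the main edgeR fit called 0% of the genes, with 1134 genes at an unadjusted p under 0.05, and limma-voom called none, with 1100 genes at an unadjusted p under 0.05. An edgeR fit without a filter on low counts did call genes in this test, members among them, as given in the closing section. DESeq2 called 30 genes, with 907 at an unadjusted p under 0.05, and *Furin* was among the 30 at an adjusted p of 0.00471. The gene lies on chromosome 7, where the median log2 difference of 943 tested genes between libraries labelled knockout and control was -0.25 without TGF-β and -0.14 after it. The genes whose pattern over the 8 libraries was most like that of *Furin* were *Smpd3*, *Mkl1* and *Rgp1*, with mean absolute differences of 0.110, 0.134 and 0.141 in centred log2 CPM, against a median of 0.54 over the 13027 other tested genes.

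*Ltbp1*, whose product binds the TGF-β propeptide covalently and anchors it in the matrix, lies on chr17:75404908-75791852 on the plus strand of NCBIM37 (ENSMUSG00000001870.8). Its 8 annotated transcripts include long and short forms from separate promoters, which a count per gene does not separate. The 2 RefSeq windows, on the plus strand of GRCm38.p6, are shown for comparison with *Furin*, with CAGAC or GTCTG in capitals.
Ltbp1 start at chr17:75005279-75005578: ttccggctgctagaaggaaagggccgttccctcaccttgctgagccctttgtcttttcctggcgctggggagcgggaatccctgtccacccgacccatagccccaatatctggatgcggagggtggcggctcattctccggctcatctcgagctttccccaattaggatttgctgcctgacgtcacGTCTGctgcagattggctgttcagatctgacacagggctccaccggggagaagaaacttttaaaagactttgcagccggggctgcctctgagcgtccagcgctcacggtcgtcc
Ltbp1 start at chr17:75178531-75178830: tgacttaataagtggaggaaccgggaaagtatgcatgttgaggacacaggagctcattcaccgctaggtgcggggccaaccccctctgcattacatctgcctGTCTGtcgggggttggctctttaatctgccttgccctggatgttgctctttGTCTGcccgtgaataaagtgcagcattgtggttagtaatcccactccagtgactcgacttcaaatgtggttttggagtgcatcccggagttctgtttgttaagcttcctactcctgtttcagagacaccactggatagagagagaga
GTCTG stands at bases 187 to 191 of the upstream window and at bases 103 to 107 and 154 to 158 of the downstream one.

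*Ltbp1* had 200.2 and 242 CPM in untreated control libraries and 276 and 303 CPM after TGF-β, against 295 and 326 CPM in untreated libraries labelled knockout and 465 and 547 CPM after TGF-β. Treated libraries lay above untreated ones in both genotypes, and libraries labelled knockout lay above control libraries at the same treatment without overlap. The TGF-β response was 0.39 on the log2 scale in control cells (SE 0.15, edgeR adjusted p = 0.140) and was not called. Under the knockout label *Ltbp1* rose by 0.70 (SE 0.15, edgeR adjusted p = 0.0259). This call was lost without untreated replicate 1 (edgeR adjusted p = 0.196), without untreated replicate 2 (0.133) and without treated replicate 2 (0.147) of the libraries labelled knockout. Of all genes tested, 6.82% were called for TGF-β in the libraries labelled knockout, 4.25% as higher and 2.57% as lower. Among the 5 tested members 3 were called there, all higher.

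Between the genotypes *Ltbp1* differed by 0.49 without TGF-β (SE 0.15, edgeR adjusted p = 0.165), which was not called. In that comparison the main edgeR fit called 1.83% of the genes tested, 1.03% as higher and 0.798% as lower, and 0 of the 5 members. *Ltbp1* and *Ltbp3* were at an unadjusted p under 0.05 there, at ranks 791 and 1569 by edgeR p among 13028 genes. DESeq2 and limma-voom called 0 members too. After TGF-β *Ltbp1* was higher in the libraries labelled knockout by 0.81 (SE 0.15, edgeR adjusted p = 0.0103). Without treated replicate 2 of the libraries labelled knockout the edgeR adjusted p was 0.0694, and in a fit of only the 4 treated libraries it was 0.0579. The difference between its TGF-β responses was 0.32 (SE 0.21, edgeR adjusted p = 0.713). *Ptk2b*, *Mmp14* and *Cd276* had the most similar patterns, with mean absolute differences of 0.0448, 0.0622 and 0.0683 in centred log2 CPM against a median of 0.47 over all other tested genes. *Mmp14* encodes a membrane-bound metalloproteinase of the pericellular matrix.

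*Ltbp3*, which likewise binds the propeptide and is needed for secretion of latent TGF-β in several cell types, lies on chr19:5740904-5758532 on the plus strand of NCBIM37 (ENSMUSG00000024940.9). Its RefSeq window, on the plus strand of GRCm38.p6, is shown because a CAGAC overlaps in it with TGANTCA, the motif of AP-1, the dimer of Fos and Jun proteins.
Ltbp3 start at chr19:5740650-5740949: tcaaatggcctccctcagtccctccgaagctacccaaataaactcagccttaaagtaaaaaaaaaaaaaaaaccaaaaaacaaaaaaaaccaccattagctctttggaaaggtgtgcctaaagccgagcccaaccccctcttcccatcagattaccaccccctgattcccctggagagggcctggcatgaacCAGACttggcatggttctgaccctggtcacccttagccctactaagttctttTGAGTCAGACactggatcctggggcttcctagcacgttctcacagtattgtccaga
The capitals mark CAGAC at bases 193 to 197 and 250 to 254 and TGAGTCA at bases 245 to 251, the last 2 sharing 2 bases. TGANTCA was found on either strand in 7.81% of the 32851 windows. The palindrome GTCTAGAC, present in 0.213% of all windows, and the E-box CACGTG, in 7.15%, were in none of the 10 windows of the 6 members with an entry. *Thbs1* was not among these entries, and the windows of *Ltbp4* and *Fbn1* held none of the 4 motifs. The single window of *Ltbp2*, a gene that was barely detected, held CAGAC or GTCTG 3 times, as many as the 2 windows of *Furin* or of *Ltbp1* together.

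In control cells *Ltbp3* had 119 and 112 CPM without TGF-β and 126 and 90.5 CPM with it. The libraries labelled knockout had 150 and 194 CPM without TGF-β and 174 and 261 CPM with it. Every library labelled knockout was above the control libraries of the same treatment, and treated and untreated libraries overlapped in both genotypes. The TGF-β responses were -0.09 (SE 0.23, edgeR adjusted p = 0.839) in control cells and 0.34 (SE 0.23, edgeR adjusted p = 0.426) in the libraries labelled knockout. Without TGF-β the genotypes differed by 0.57 (SE 0.23, edgeR adjusted p = 0.284), not called in the fit of all 8 libraries but called, at 0.55 with an edgeR adjusted p of 0.0373, in a fit of only the 4 untreated libraries. After TGF-β *Ltbp3* was higher in the libraries labelled knockout by 1.01 (SE 0.23, 0.49 to 1.53, edgeR adjusted p = 0.0212).

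That call for *Ltbp3* was lost without treated replicate 2 of the control (log2 difference 0.79, edgeR adjusted p = 0.0804) and without treated replicate 2 of the libraries labelled knockout (0.70, edgeR adjusted p = 0.131). It was also lost in a fit of only the 4 treated libraries (edgeR adjusted p = 0.0863). As no source used here says whether reads were counted by strand, counts of any gene that overlaps another are uncertain. The difference of the TGF-β responses of *Ltbp3* was 0.43 (SE 0.33, edgeR adjusted p = 0.752). The closest patterns were those of *Fscn1*, *Cmtm3* and *Selenbp1*, at 0.0782, 0.0898 and 0.0975 against a median of 0.47. *Fscn1* encodes the actin-bundling protein fascin.

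*Ltbp4*, which binds latent TGF-β less tightly and takes part in elastic fibre assembly, lies on chr7:28090155-28122711 on the minus strand (ENSMUSG00000040488.9). Its counts were 50 and 60 in untreated and 34 and 31 in treated control libraries, and 23 and 94 in untreated and 64 and 112 in treated libraries labelled knockout. On the CPM scale these were 6.03 and 7.32, 3.19 and 3.28, 5.07 and 12.5, and 5.22 and 8.90. The treated control libraries were the lowest, whereas the 2 untreated libraries labelled knockout spanned all the other values. TGF-β in control cells gave -1.04 on the log2 scale (SE 0.45, -2.06 to -0.02, edgeR adjusted p = 0.178), which was not called. After TGF-β the genotypes differed by 1.12 (SE 0.45, 0.13 to 2.12, edgeR adjusted p = 0.119), which was called only when no filter on low counts was applied (1.16, edgeR adjusted p = 0.0184). The response in the libraries labelled knockout (-0.35, SE 0.43) and the untreated difference (0.43, SE 0.44) changed sign when untreated replicate 2 of the libraries labelled knockout was left out.

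*Ltbp2*, a microfibril protein that does not bind the TGF-β propeptide, and *Fbn1*, which encodes the main microfibril protein of the matrix, were at the limit of detection. *Ltbp2* lies on chr12:86124162-86217482 and *Fbn1* on chr2:125126330-125333729, both on the minus strand (ENSMUSG00000002020.8 and ENSMUSG00000027204.7). *Ltbp2* had 0 and 2 counts in untreated and 11 and 5 in treated control libraries, and 0 and 2 in untreated and 6 and 19 in treated libraries labelled knockout. Each treated library thus had more counts of *Ltbp2* than each untreated one, at a level of at most 1.51 CPM, but treated libraries were also deeper. The count of 0 in untreated replicate 1 of the libraries labelled knockout allows up to 0.661 CPM. That is above the lowest treated values, 0.529 CPM in control and 0.489 CPM under the knockout label, so a separation was not established. *Fbn1* had 0 and 1, 0 and 0, 1 and 0, and 2 and 1 counts in the same order. No library exceeded the 3 counts that a count of 0 allows, so a difference in *Fbn1* was not detectable at this depth. The microfibril and elastic fibre genes *Fbn2*, *Mfap2*, *Eln*, *Fbln5* and *Loxl1* had no counts in any library, whereas *Efemp2* (fibulin-4) was at group means of 59.1 to 65.3 CPM and *Fbln2* at 438 to 1346 CPM.

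*Thbs1* encodes a secreted glycoprotein that can release TGF-β from its propeptide and lies on chr2:117937612-117952869 on the plus strand (ENSMUSG00000040152.8). Control libraries had 69.6 and 99.7 CPM without TGF-β and 237 and 238 CPM with it. Libraries labelled knockout had 62.4 and 75.0 CPM without TGF-β and 251 and 429 CPM with it. All 4 treated libraries lay above all 4 untreated ones, and the untreated libraries of the genotypes overlapped. *Thbs1* rose by 1.49 on the log2 scale in control cells (SE 0.26, 0.91 to 2.07, edgeR adjusted p = 0.0101), the only call among the 5 members in a comparison in which 9.16% of all genes were called, 4.69% as higher and 4.47% as lower. This call was lost when untreated control replicate 1 was left out (1.25, edgeR adjusted p = 0.115). In the libraries labelled knockout *Thbs1* rose by 2.30 (SE 0.27, edgeR adjusted p = 0.00169), and this call was kept without any single library, at 1.90 to 2.66.

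Without TGF-β the genotypes differed in *Thbs1* by -0.30 (SE 0.26, edgeR adjusted p = 0.641). After TGF-β the difference was 0.52 (SE 0.25, -0.05 to 1.08, edgeR adjusted p = 0.191), and it turned on treated replicate 2 of the libraries labelled knockout, the highest at 429 CPM. It was 0.10 without that library and 0.86 without treated replicate 1 of the libraries labelled knockout, where it was called (edgeR adjusted p = 0.0415). It was also called without a filter on low counts (0.55, edgeR adjusted p = 0.0174). The 2 TGF-β responses differed by 0.82 (SE 0.36, 0.01 to 1.63, edgeR adjusted p = 0.570), which was not called, but it was called without the filter (0.89, edgeR adjusted p = 0.0477). *Dusp16*, *Tmcc3* and *Fosl2* had the closest patterns, at 0.136, 0.184 and 0.185 against a median of 0.96. *Dusp16* encodes a MAP kinase phosphatase and *Fosl2* an AP-1 subunit. The basal keratin *Krt14* was also higher after TGF-β, at 4.91 ± 0.388 and 24.8 ± 1.35 CPM in control libraries and 2.54 ± 0.165 and 32.4 ± 13.3 CPM in those labelled knockout (mean ± SD, n = 2). These are log2 fold changes of 2.33 and 3.66, whereas the other basal markers *Krt5*, *Acta2* and *Trp63* were at no more than 0.715 CPM in any library.

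**Figure D2:**
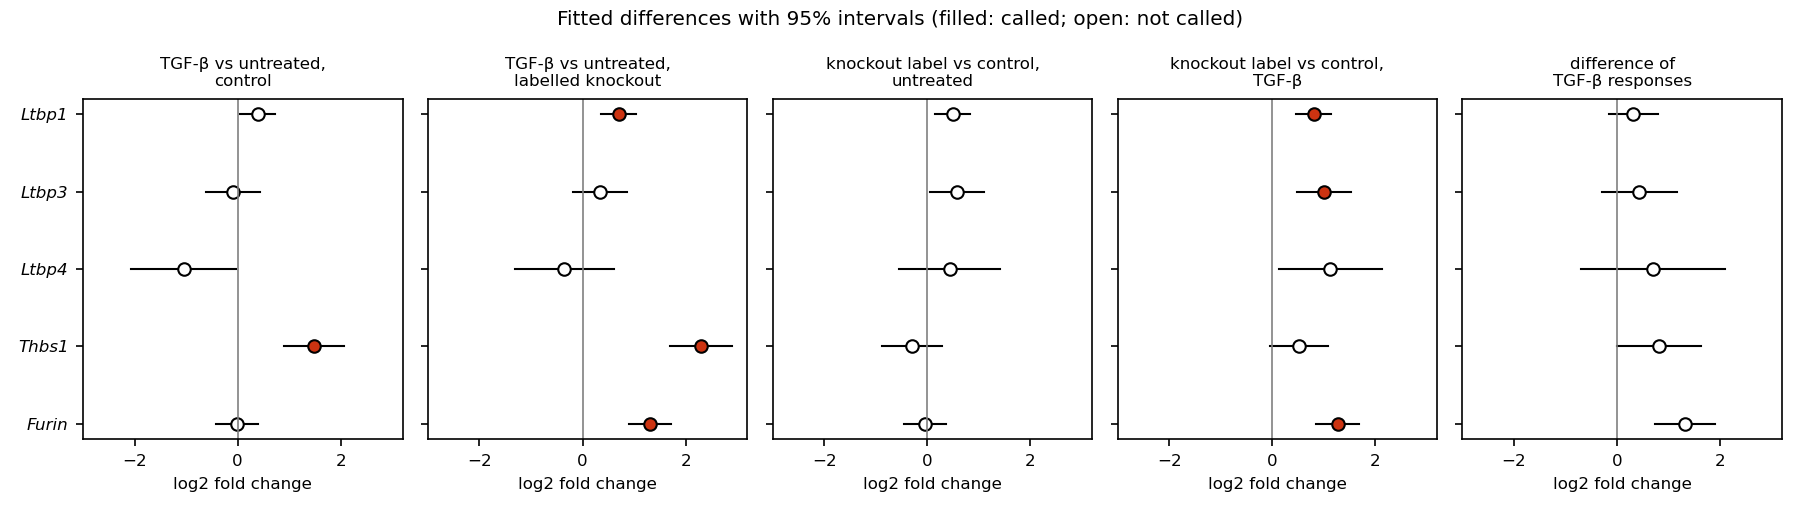
Log2 fold change (horizontal axis) of the 5 tested genes (rows) in each of the 5 comparisons (panels), with 95% intervals from edgeR, filled where called. *Furin* is filled for TGF-β in the libraries labelled knockout (1.31) and against control after TGF-β (1.27), while its open point for the difference of responses (1.31) has an interval above 0 but an adjusted p of 0.392.

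**Figure D3:**
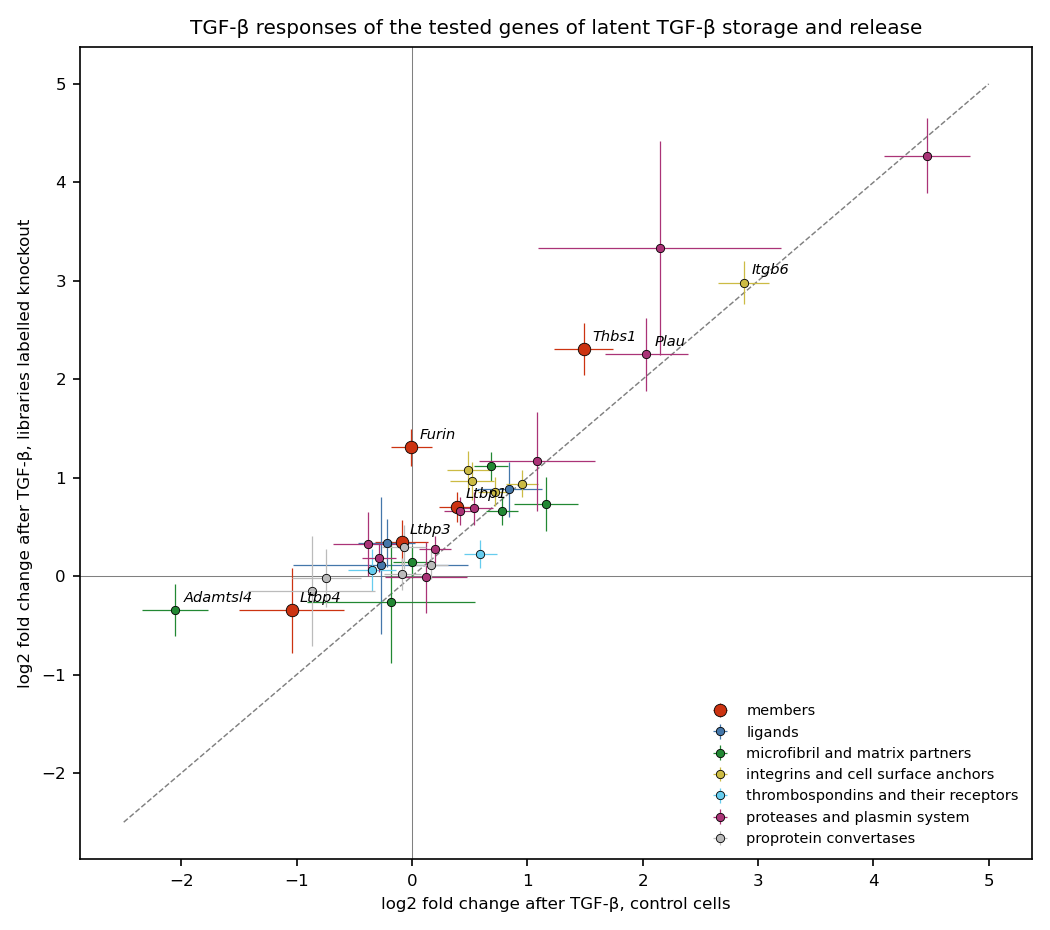
TGF-β response in control cells (horizontal axis) against that in libraries labelled knockout (vertical axis), as log2 fold changes with standard errors, for the tested members and pathway genes coloured by list, with a dashed line of equal response. *Furin* lies at -0.01 and 1.31, above the line, and *Thbs1* at 1.49 and 2.30, whereas *Itgb6* (2.87 and 2.98) lies near it.

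The 5 tested members had median log2 fold changes of -0.01 for TGF-β in control cells and 0.70 under the knockout label, against 0.02 and 0 over all tested genes. Between the genotypes their medians were 0.43 without TGF-β and 1.01 after it, against 0.02 and -0.01 over all genes. These comparisons share libraries in pairs and are not independent of each other. The replicates of the treated groups also differed in ways that touch these values. The log2 ratio of replicate 1 to replicate 2 was 0.44 for *Furin* and 0.48 for *Ltbp3* in treated control libraries, and -0.33 and -0.59 in treated libraries labelled knockout. The immediate-early gene *Junb* had the same order of replicates, at 1.18 and -0.66, while *Ltbp1* did not, at -0.13 and -0.23. With the replicate number as a block, no member's call changed in any comparison, and with the numbers of the treated knockout pair exchanged, none changed after TGF-β.

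Levels can be compared between genes only per length, taken here as the union of all annotated exons of a gene. That union was 10688 bases for *Ltbp1* (8 transcripts) and 9178 for *Furin* (7), against 5199 for *Ltbp3* and 6073 for *Thbs1* (2 each). A union can exceed the length of the transcript that is expressed, so the order of genes depends on the annotation. Per kilobase of annotated exon *Ltbp3* (22.2 ± 0.886 CPM per kb, mean ± SD, n = 2) and *Ltbp1* (20.7 ± 2.78) led in untreated control libraries and overlapped. They were followed by *Thbs1* (13.9 ± 3.51) and *Furin* (13.6 ± 1.09), which also overlapped, and by *Ltbp4* (1.03 ± 0.141) far lower. After TGF-β in control cells the order was *Thbs1* (39.1 ± 0.0366), *Ltbp1* (27.1 ± 1.74), *Ltbp3* (20.8 ± 4.86) and *Furin* (13.5 ± 2.90), with no overlap between neighbours. In untreated libraries labelled knockout *Ltbp3* (33.0 ± 5.98) and *Ltbp1* (29.0 ± 2.01) overlapped above *Furin* (13.2 ± 0.0268) and *Thbs1* (11.3 ± 1.46). In treated libraries labelled knockout each of *Thbs1* (56.0 ± 20.7), *Ltbp1* (47.3 ± 5.44), *Ltbp3* (41.9 ± 11.9) and *Furin* (32.6 ± 5.31) overlapped with its neighbour in that order. There *Furin* exceeded 82.4% of tested genes per length, against 61.7 to 62.9% in the other groups, whereas *Ltbp4* exceeded 6.04 to 12.2% of them.

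**Figure D4:**
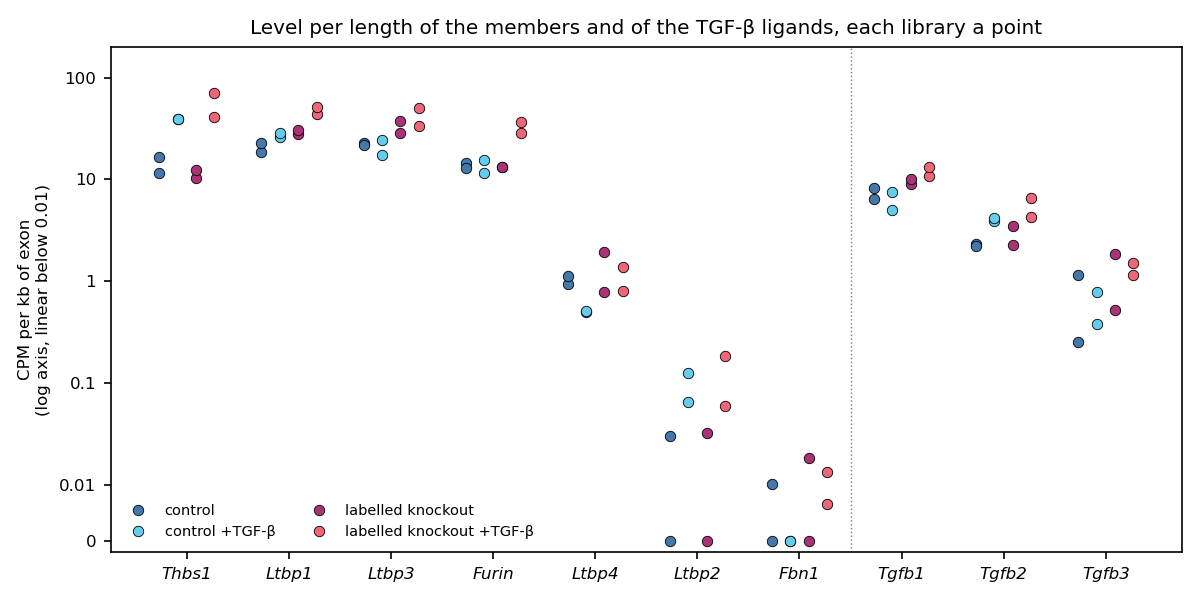
Level per length (CPM per kilobase of annotated exon, log axis that is linear below 0.01) of the members and the 3 TGF-β ligands in each library, by condition. *Ltbp1*, *Ltbp3*, *Thbs1* and *Furin* lie above *Tgfb1* in group means in every condition, and *Ltbp4* lies near 1 CPM per kb.

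Within the binding protein family, *Ltbp1* and *Ltbp3* made up nearly all of the summed level per length. How the sum divides between these genes depends on the same annotated lengths. *Ltbp1* held 44.1 and 49.9% of it in untreated and 51.0 and 61.2% in treated control libraries, and 48.3 and 43.7% in untreated and 55.9 and 49.7% in treated libraries labelled knockout. *Ltbp4* held 0.971 to 2.77%. The sum itself was 42.5 and 45.4 CPM per kb in untreated and 50.8 and 46.3 in treated control libraries, and 57.2 and 69.7 in untreated and 77.9 and 103 in treated libraries labelled knockout. Each library labelled knockout was thus above every control library in the summed level.

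The ligands were lower per length than *Ltbp1* and *Ltbp3* in every condition. *Tgfb1* had 21.1 and 16.2 CPM in untreated and 19.2 and 12.8 CPM in treated control libraries, and 22.9 and 25.7 CPM in untreated and 27.6 and 34.0 CPM in treated libraries labelled knockout. After TGF-β it was higher in the libraries labelled knockout by 0.94 on the log2 scale (SE 0.24, edgeR adjusted p = 0.0313), the only call of a ligand in any of the 5 comparisons. It was lost in a fit of the 4 treated libraries alone (edgeR adjusted p = 0.104) and without any 1 of 4 libraries, up to 0.175. *Tgfb2* had 11.1 and 10.7, 18.9 and 20.3, 11.0 and 17.0, and 20.5 and 31.9 CPM in the same order of conditions, and *Tgfb3* stayed between 0.844 and 6.25 CPM.

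Among the integrins and cell surface anchors of latent TGF-β, 8 of 9 listed symbols matched a gene and 5 genes were tested. TGF-β raised 3 of them in control cells and all 5 under the knockout label, and none was lower, where 4.69% and 4.25% of all tested genes were called higher. *Itgb6*, the epithelial subunit of the propeptide-binding integrin αvβ6, rose from 58.8 ± 13.4 to 431 ± 30.7 CPM in control cells and from 81.4 ± 16.6 to 645 ± 112 CPM in the libraries labelled knockout (mean ± SD, n = 2). Its log2 fold changes were 2.87 (edgeR adjusted p = 4.16e-04) and 2.98 (edgeR adjusted p = 3.13e-04). *Itgb1* and *Itgb5* rose in both genotypes, by 0.72 and 0.95 in control cells, and *Itgav* (1.08) and *Itgb3* (0.96) were called in the libraries labelled knockout. The calls of *Itgb6* were kept without any single library, while those of the other integrins were lost on leaving out at least 1 library. *Itgb5* was higher in the libraries labelled knockout without (0.69) and with TGF-β (0.67), the only integrin called between the genotypes, and these calls were lost under 6 and 1 of the 8 omissions of a library. With a replicate block the call of *Itgb5* without TGF-β was lost too (edgeR adjusted p = 0.0606).

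Of 15 proteases and plasmin-system genes that can act on latent complexes, 10 were tested. TGF-β raised 2 in control cells and 4 in knockout-labelled ones, where 4.69% and 4.25% of all tested genes were called higher, and none was lower, against 4.47% and 2.57% of all. *Plau*, which encodes urokinase, rose in both genotypes, by 2.03 and 2.25 on the log2 scale. *Bmp1* (0.69) and *Mmp14* (0.66) were called under the knockout label, the latter losing its call under 4 of 8 omissions of a library. *Plau* lost its call in control cells on leaving out either untreated control library, and under the knockout label on leaving out untreated replicate 1. *Bmp1* encodes a metalloproteinase that cuts Ltbp1, and its call was lost under 5 of 8 omissions and with a replicate block (edgeR adjusted p = 0.0685). After TGF-β the serine protease gene *Htra1* (1.15, edgeR adjusted p = 0.00226) and *Mmp14* (0.68) were higher in the libraries labelled knockout. The call of *Htra1* was kept in every omission of a library, and that of *Mmp14* was lost without treated replicate 2 of the libraries labelled knockout (edgeR adjusted p = 0.0742).

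Of 8 other proprotein convertases, 5 were tested and none was called for TGF-β in either genotype, against 9.16% and 6.82% of all tested genes. Between the genotypes 1 was called lower without TGF-β (0.798% of all genes), and 1 was called higher (8.47%) and 1 lower (6.57%) after it, so that these counts are too small to set the list apart from all genes. *Pcsk6*, which encodes the convertase PACE4, was lower in the libraries labelled knockout, at 40.0 ± 0.936 against 6.90 ± 1.34 CPM without TGF-β and 38.1 ± 4.10 against 8.58 ± 1.01 CPM with it (mean ± SD, n = 2). Its log2 differences were -2.51 (edgeR adjusted p = 9.05e-04) and -2.15 (edgeR adjusted p = 7.75e-04), kept without any single library.

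Among the microfibril and matrix partners, 18 of 19 listed symbols matched a gene and 6 genes were tested. TGF-β gave 3 higher and 1 lower calls in control cells (4.69% and 4.47% of all tested genes) and 2 higher calls under the knockout label (4.25%), and between the genotypes 1 was higher without TGF-β (1.03%) and 3 after it (8.47%). In control cells *Fn1* (fibronectin, 1.16), *Tgm2* (transglutaminase 2, which crosslinks Ltbp1 to the matrix, 0.78) and *Fbln2* (fibulin-2, 0.68) rose after TGF-β. *Adamtsl4*, a microfibril-binding protein gene, fell by 2.06 (SE 0.29, edgeR adjusted p = 0.00385), from 15.2 ± 3.22 to 3.65 ± 0.524 CPM. Under the knockout label *Fbln2* (1.11) and *Tgm2* (0.66) rose, and *Adamtsl4* was at 17.4 ± 0.941 and 13.7 ± 3.17 CPM (mean ± SD, n = 2). After TGF-β the libraries labelled knockout had higher *Adamtsl4* (1.90, edgeR adjusted p = 0.00447), *Fbln2* (0.94) and *Tgm2* (0.74), and without TGF-β higher *Tgm2* (0.86, edgeR adjusted p = 0.0187). The 3 calls between the genotypes after TGF-β were kept without any single library, although that of *Tgm2* was lost in a fit of the 4 treated libraries (edgeR adjusted p = 0.0574), and its untreated call was lost on leaving out any of the 4 untreated libraries. Of the TGF-β calls in this list, that of *Adamtsl4* was kept and each other one was lost on leaving out at least 1 library. Of 6 other thrombospondins and receptors, 2 were tested, and *Cd47*, the thrombospondin-1 receptor, rose by 0.59 in control cells (edgeR adjusted p = 0.0363), a call lost under 6 of 8 omissions and with a replicate block (edgeR adjusted p = 0.0604).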

How the data were processed

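The deposited table held raw counts for each gene in 8 NMuMG RNA-seq libraries, which the authors had not normalized. Per the labels and the paper, the processing named differs (HISAT2 and limma against Rsubread and DESeq2), and how reads were assigned to genes and strands is not given in the sources used here. The 37310 identifiers match GENCODE vM1 (NCBIM37). Genes were kept by filterByExpr, scaled by TMM and fitted over all 8 libraries with 1 coefficient per group by edgeR 4.0.16 (quasi-likelihood test, R 4.3.3), with a Benjamini-Hochberg adjusted p threshold of 0.05 over the 13028 tested genes and a log2 fold change threshold of 0.5 (none for the difference of responses). The script was tested on simulated data. Alternatives were DESeq2 1.42.0 and limma-voom (limma 3.58.1), RLE factors, 2 other filters, no fold threshold, a replicate block, fits of 4 libraries and omission of each library. CPM used TMM-scaled sizes, with a prior count of 2 for patterns. Intervals are 95% and floors cover counting error only.

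The members and gene lists were chosen with earlier results of these data known. Named were all members, the ligands, list genes called in any comparison (a few of which are not reported here), and the 3 tested genes closest in pattern to each member called. The lists covered ligands, matrix partners (18 of 19 symbols matched), integrins and anchors (8 of 9), thrombospondins (6), proteases (15), convertases (8), TGF-β targets and cell type markers. Markers of endothelial cells and leukocytes summed to at most 0.847 and 5.58 CPM. Promoter windows came from RefSeq, and protein sequences were not analysed here.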

Additional observations from a re-analysis of the deposited data

How the results depend on the processing

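With 2 libraries per group, single libraries moved counts of calls widely. Over all genes, TGF-β in control cells gave 1194 calls, against 2021 without a filter on low counts, 470 in a fit of its 4 libraries and 145 to 1484 on leaving out a library. In the libraries labelled knockout it gave 889, against 1832 without a filter and 136 to 1381 on leaving out a library. Between untreated genotypes there were 238, against 428 with DESeq2, 137 with limma-voom, 756 without a filter, 150 with a replicate block, 804 in a fit of 4 libraries and 42 to 390 on leaving out a library. After TGF-β there were 1959, against 410 in a fit of 4 libraries and 477 to 2762 on leaving out a library. The difference of responses gave 0 calls in edgeR, against 30 with DESeq2, 211 without a filter and 0 to 6 on leaving out a library.

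Of the 5 tested members, leaving out a library gave 0 to 1 calls against 1 for TGF-β in control cells and 1 to 3 against 3 in the libraries labelled knockout. Between untreated genotypes 1 member was called in a fit of 4 libraries, against 0. After TGF-β 3 were called, against 5 without a filter, 1 in a fit of 4 libraries and 1 to 4 on leaving out a library. For the difference of responses DESeq2 called 1 and the fit without a filter 2, against 0. Directions changed only on leaving out a library and only for values that were not called. For TGF-β in control cells the log2 values ranged from -0.26 to 0.20 for *Furin* and from -0.37 to 0.13 for *Ltbp3*, and for TGF-β in the libraries labelled knockout from -0.82 to 0.49 for *Ltbp4*. Between untreated genotypes they ranged from -0.13 to 0.035 for *Furin* and from -0.40 to 0.90 for *Ltbp4*. RLE factors, a minimum mean of 10 counts, limma-voom and no fold threshold changed no member's call. The cause of these changes was not tested.

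The replicate block changed no member's call (1, 3, 0, 3 and 0 members called in the order above) and weakened 4 calls of other list genes, among them *Cd47*, *Bmp1* and *Itgb5*. It gave 831, 676, 150, 1490 and 0 calls over all genes. Same-numbered libraries deviated together with correlations across genes of 0.30 for TGF-β in control cells, -0.0092 in the libraries labelled knockout, 0.10 between untreated and -0.47 between treated genotypes. The labels do not say that a number marks a shared culture or day, and whether the numbers pair the libraries was not settled. With these numbers exchanged in the treated knockout pair, an alternative chosen after seeing the data, 2809 genes and 3 members were called after TGF-β. *Ltbp2* and *Fbn1* had too few counts to be tested, and *Ltbp4* had 23 to 112 counts per library.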
